A study of Homo sapiens with 6 samples.

Results

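The NF-kB subunits and the proteins that restrain or license them were followed in A549 cells, a human lung adenocarcinoma line, after a pulse of cisplatin, a platinum compound that forms crosslinks in DNA. The set was chosen by gene symbol and held 10 genes: the subunit genes NFKB1, NFKB2, RELA and RELB, the inhibitor genes NFKBIA and NFKBIE, and the ubiquitin and kinase regulators TNFAIP3, BIRC2, BIRC3 and IKBKG. Of these, 9 had a probe set that the platform's probe table names, 1 each, among 8746 probe sets on the array. BIRC3 had none, and no value is given for it. All 9 were bright enough to be among the 6559 probe sets that were tested. In the cisplatin group (3 arrays) the cells were held for 1 hour in 50 µM of the drug and then for 10 hours without it. In the control group (3 arrays) the cells got growth medium for the same 1 hour and the same 10 hours. Per the series description the samples of both groups came from 3 independent experiments. Only this line, dose and time were compared, with no genetic change in either group.

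NF-kB is a family of dimeric transcription factors that wait in the cytoplasm, bound by inhibitors of the IkB family. When the IKK kinase complex phosphorylates an inhibitor it is degraded, and the freed dimer enters the nucleus. Several of its target genes encode its own brakes, among them NFKBIA and TNFAIP3, so the levels of these transcripts are commonly read as a trace of NF-kB activity. DNA damage is a known trigger of this pathway, through the kinase ATM and the IKK scaffold encoded by IKBKG.

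None of the 9 genes passed the test after cisplatin. With limma and Benjamini-Hochberg adjustment over all tested probe sets, each had an adjusted p of 0.999, 0 had an unadjusted p under 0.05, and the cisplatin and control arrays overlapped for all 9. Across all tested probe sets 0.290% were called, 5.03% had an unadjusted p under 0.05, and in 11.0% the groups did not overlap. In this fit every 95% interval of the fold included no difference and lay within 2-fold in either direction. The lowest bound was 0.677 (IKBKG) and the highest 1.74 (NFKBIE). For NFKBIE that bound depends on the fit. Its log2 fold was 0.50 (SE 0.25) with no offset added before log2, and 0.52 (SE 0.21) when control 1 and cisplatin 2 were left out, so a change over 2-fold is not excluded. CDKN1A, the p53 target that encodes an inhibitor of cyclin-dependent kinases, served as a check of the treatment and was called. Its intensity was 1467, 1370.3 and 1429 on cisplatin arrays 1 to 3, against 249, 281 and 241 on control arrays 1 to 3 (log2 fold 2.42, SE 0.10, limma adjusted p = 4.74e-06).

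**Figure D1:**
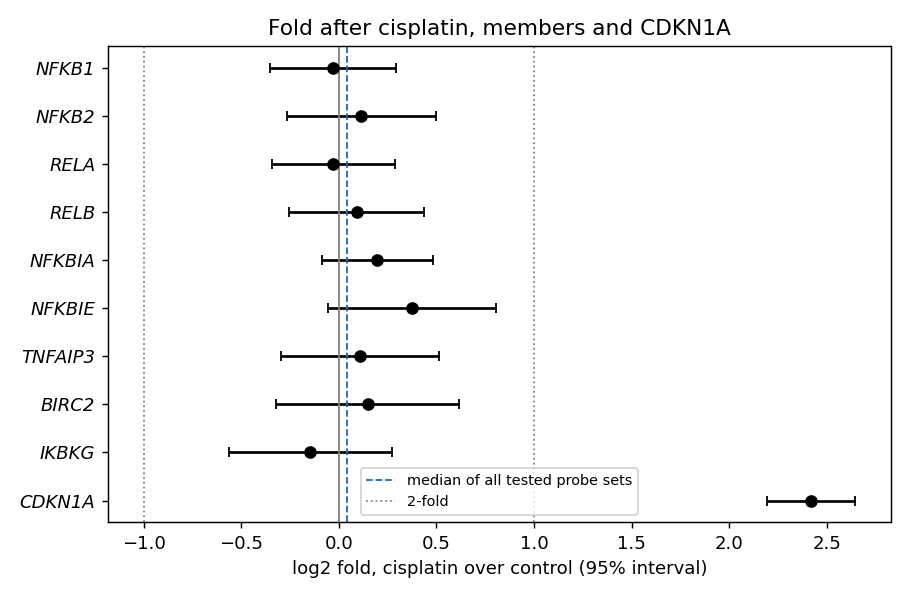
Log2 fold of cisplatin over control for the 9 genes and for CDKN1A, on the horizontal axis, with points for the estimate and bars for its 95% interval in limma (3 arrays per group); dotted lines mark 2-fold and the dashed line the median of all tested probe sets. All 9 intervals cross 0 and stay inside the dotted lines, while that of CDKN1A runs from 2.19 to 2.64.

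Intensities are probe set values on a linear scale, and fold changes were fitted on log2 of the value plus an offset of 11.8, so that a dim probe set shows a smaller fold than the ratio of its means. The median log2 fold over all tested probe sets was 0.040, and 60.5% of them had a positive fold. The median over the 9 genes was 0.11, with 6 positive and 3 negative. The arrays had median intensities of 57.2 to 67.2, and with 3 per group their number limits the precision. An array of bulk RNA cannot tell fewer expressing cells from less RNA per cell. Probe sets of 3 keratins marked the cells as epithelial, KRT18 with 5595 ± 352 after cisplatin and 5810 ± 488 in controls (mean ± SD, n = 3 each). The means of KRT7 and KRT8 were 1950 and 1957 after cisplatin and 2243 and 2145 in controls. KRT19 was lower, with means of 143 after cisplatin and 131 in controls, and EPCAM and CDH1 were dim (26.1 to 46.1 on all arrays). Of 9 markers of blood, endothelial and stromal cells 4 passed the filter, and the summed intensity of the 9 was 263 to 327 on the cisplatin arrays and 264 to 328 on the control arrays. None of the 4 (CD3E, CD14, PECAM1 and COL1A1) was called. COL3A1 and LUM, which mark fibroblasts, did not exceed 3.52 on any array. COL1A1, also a fibroblast marker, read 85.9 to 109 over the arrays, and PECAM1, an endothelial marker, 53.8 to 85.6, both brighter than EPCAM and CDH1. CD3E and CD14, markers of blood cells, read 27.2 to 55.1 and 28.1 to 61.4, which overlaps the range of EPCAM and CDH1.

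NF-kB dimers bind DNA at kappaB sites, and matches to that motif near the start of the genes are shown here because the values below are read against them. RefSeq promoter windows on GRCh38.p14, from 250 bases before the start to 50 after it, were found for 8 of the 10 genes. For TNFAIP3 and IKBKG the windows lie inside the gene (chr6:137867009-137867308 and chrX:154547370-154547669). The spans of these genes begin upstream, at chr6:137866349 and chrX:154541238, and those outer starts were not searched. Positions are counted from the start that each window uses. They were searched on both strands for the kappaB consensus, a motif of 10 bases. Matches were found for 4 of the 8 (NFKB1, NFKBIA, TNFAIP3 and BIRC3), against 2958 of all 27305 windows (10.8%). The matches of the 3 measured genes follow with 10 bases on either side, 5′ to 3′ on the strand of the gene, and capitals mark the match.
NFKB1: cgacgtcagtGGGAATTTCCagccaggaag
NFKBIA: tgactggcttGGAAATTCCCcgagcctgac
TNFAIP3 upstream match: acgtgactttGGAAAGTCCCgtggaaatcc
TNFAIP3 downstream match: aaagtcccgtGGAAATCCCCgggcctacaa
The NFKB1 stretch is chr4:102501300-102501329 on the plus strand, and its match covers positions -49 to -40 from the start. That of NFKBIA is chr14:35404811-35404840 on the minus strand, with the match at -81 to -72. The TNFAIP3 stretches are chr6:137867182-137867211 and chr6:137867194-137867223 on the plus strand, with matches at -67 to -58 and -55 to -46 that do not overlap. NFKB1 alone of these carries the motif in the forward direction. The windows of NFKB2, RELA, BIRC2 and IKBKG held no match, which says only that these letters are not in this stretch.

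Among the subunits, RELA encodes p65, the main activating subunit of the canonical pathway. Its intensity was 191, 155 and 176 on cisplatin arrays 1 to 3, against 155, 187 and 192 on control arrays 1 to 3. The groups covered the same range, and the lowest array of each was at 155. The means were 174 ± 18.2 after cisplatin and 178 ± 20.2 in controls (SD, n = 3 each), a log2 fold of -0.029 (SE 0.14). The fold took the opposite sign without cisplatin 2 (0.047), without control 2 (0.0077) and without control 3 (0.026).

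NFKB1 encodes p105, the precursor of the p50 subunit that pairs with p65. It read 92.0, 104 and 103 after cisplatin, against 119, 93.0 and 96.2 in controls. Control 1 was the highest of the 6 arrays and the rest lay close together. The log2 fold was -0.031 (SE 0.14), with a 95% interval of the fold from 0.782 to 1.22. It was 0.067 on the log2 scale without control 1 and 0.021 without cisplatin 1.

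NFKB2 encodes p100, which is processed to p52 in the non-canonical pathway and otherwise acts as an inhibitor. It read 118, 113 and 95.2 after cisplatin, against 77.7, 105 and 118 in controls. Control 1 was the lowest array, and the other 5 lay between 95.2 and 118. The log2 fold was 0.12 (SE 0.17) and turned to -0.038 without control 1.

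RELB encodes the partner of p52. It was dim and steady, with 41.2, 46.5 and 43.8 after cisplatin, against 42.2, 37.2 and 42.0 in controls. The log2 fold was 0.091 (SE 0.15), and 35.8% of its variation over the 6 arrays (sum of squares of the log2 values) lay between the groups. For RELA, NFKB1 and NFKB2 that share was 1.35%, 1.86% and 9.30%, and its median over all tested probe sets was 11.2%. For TNFAIP3, BIRC2 and IKBKG, described below, the share was 11.2%, 6.02% and 10.5%.

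**Figure D2:**
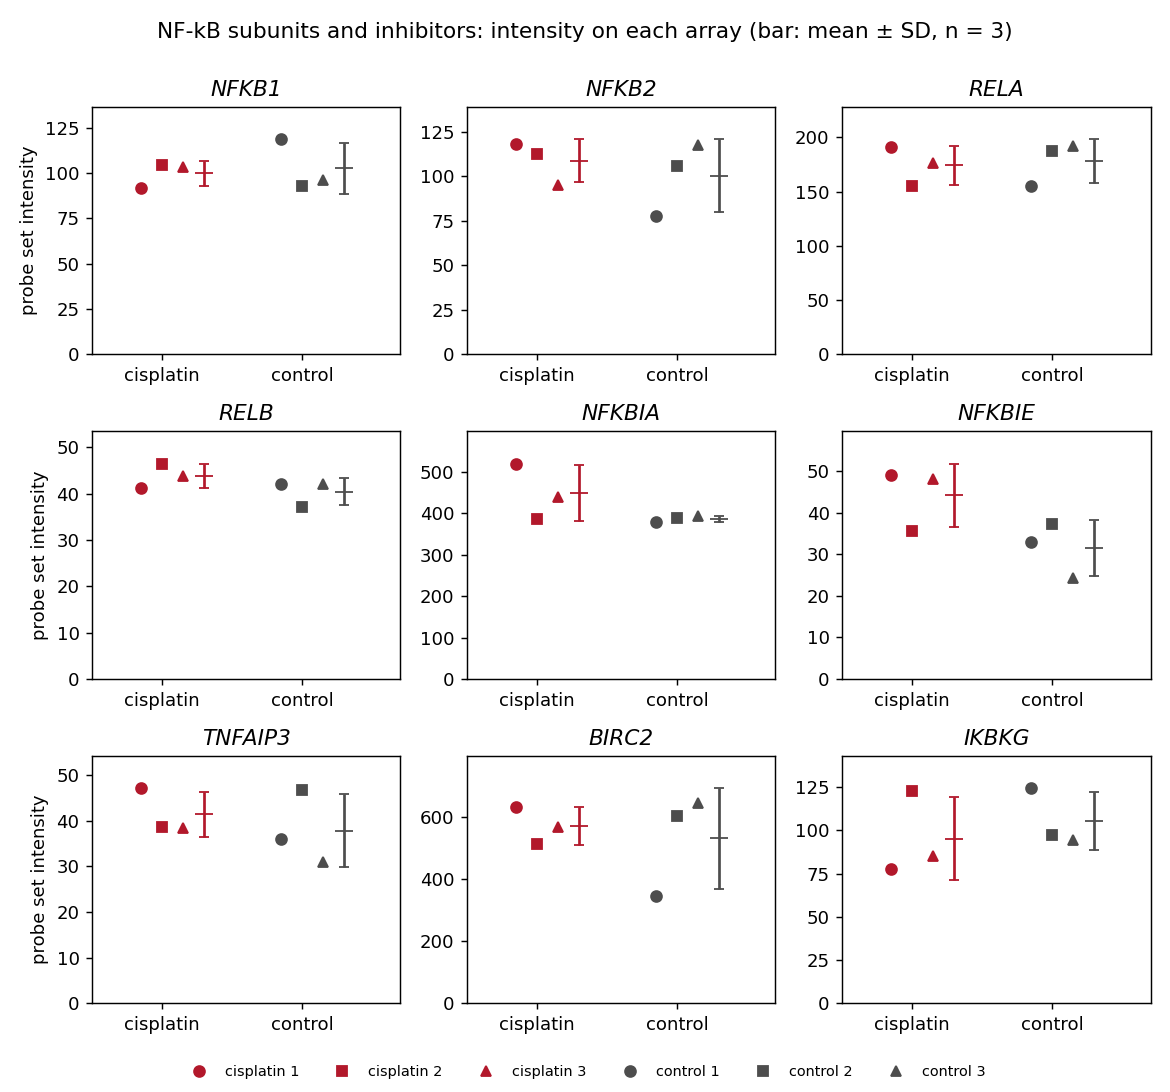
Probe set intensity (vertical axes, linear, from 0) of the 9 genes on each of the 6 arrays, cisplatin left and control right in each panel; markers give the array number and bars the mean ± SD of 3 arrays. The groups overlap in all 9 panels, NFKBIA, NFKBIE and RELB have their highest 2 arrays in the cisplatin group, and control 1 lies far below the other BIRC2 values.

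In the fit over all 6 arrays the inhibitor genes NFKBIE and NFKBIA had the highest folds of the 9. That order did not hold for either gene in every fit without an array. Without control 3 the log2 fold of BIRC2 (0.31) was above those of NFKBIE (0.25) and NFKBIA (0.21). NFKBIE encodes IkB epsilon, which holds NF-kB dimers in the cytoplasm. It read 49.2, 35.5 and 48.1 after cisplatin, against 33.0, 37.4 and 24.3 in controls. Cisplatin 1 and 3 were above every control, and cisplatin 2 lay between control 1 and control 2. The mean was 44.3 ± 7.59 after cisplatin and 31.6 ± 6.66 in controls (SD, n = 3 each), a ratio of 1.40. The fitted log2 fold was 0.37 (SE 0.19, limma unadjusted p = 0.0809), the lowest unadjusted p of the 9 genes, and the 95% interval of the fold ran from 0.962 to 1.74. Of its variation 52.7% lay between the groups. The log2 fold was lowest without control 3 (0.25) and highest without cisplatin 2 (0.49).

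NFKBIA encodes IkB alpha, the inhibitor that NF-kB resynthesises within its own feedback loop. Its intensity was 520.1, 385 and 439.7 after cisplatin, against 378, 389.7 and 392 in controls. The controls lay within a narrow band, cisplatin 1 and 3 were above it, and cisplatin 2 was inside it. The mean was 448 ± 67.8 after cisplatin and 387 ± 7.47 in controls (SD, n = 3 each). The log2 fold was 0.20 (SE 0.13, limma unadjusted p = 0.151), with a 95% interval of the fold from 0.942 to 1.39. The share of variation between groups was 39.1%. Without cisplatin 1 the log2 fold was 0.087, below that of RELB in the same fit (0.13), and without cisplatin 2 it was 0.30.

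TNFAIP3 encodes A20, a ubiquitin-editing enzyme that shuts off signalling upstream of IKK. It was dim, with 47.1, 38.7 and 38.4 after cisplatin, against 35.9, 46.7 and 30.9 in controls. The highest arrays of both groups were almost equal, and the log2 fold was 0.11 (SE 0.18). Its fitted value stayed positive when any array was left out, but was 0.0063 without control 3 and 0.23 without control 2, the lowest and highest of those fits.

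BIRC2 encodes cIAP1, a ubiquitin ligase that acts in signalling from TNF receptors and keeps the non-canonical kinase MAP3K14 low. Its intensity was 634, 515 and 569 after cisplatin, against 347, 605 and 646 in controls. The lowest array was control 1, and the other 5 lay between 515 and 646. The mean was 573 ± 59.9 after cisplatin and 533 ± 162 in controls (SD, n = 3 each). The log2 fold of 0.15 (SE 0.21) turned to -0.13 (SE 0.12) without control 1.

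IKBKG encodes NEMO, the scaffold of the IKK complex that also carries the signal from damaged DNA. It read 77.9, 123 and 84.9 after cisplatin, against 124, 97.4 and 94.6 in controls. The highest array of each group was near 124, and cisplatin 1 and 3 were below all controls. The log2 fold was -0.15 (SE 0.19), with a 95% interval of the fold from 0.677 to 1.21. It was -0.32 without cisplatin 2, -0.084 without cisplatin 3, -0.033 without control 1 and -0.030 without cisplatin 1. A partial copy of IKBKG lies near it on the X chromosome, and whether this probe set also reads that copy was not tested.

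**Figure D3:**
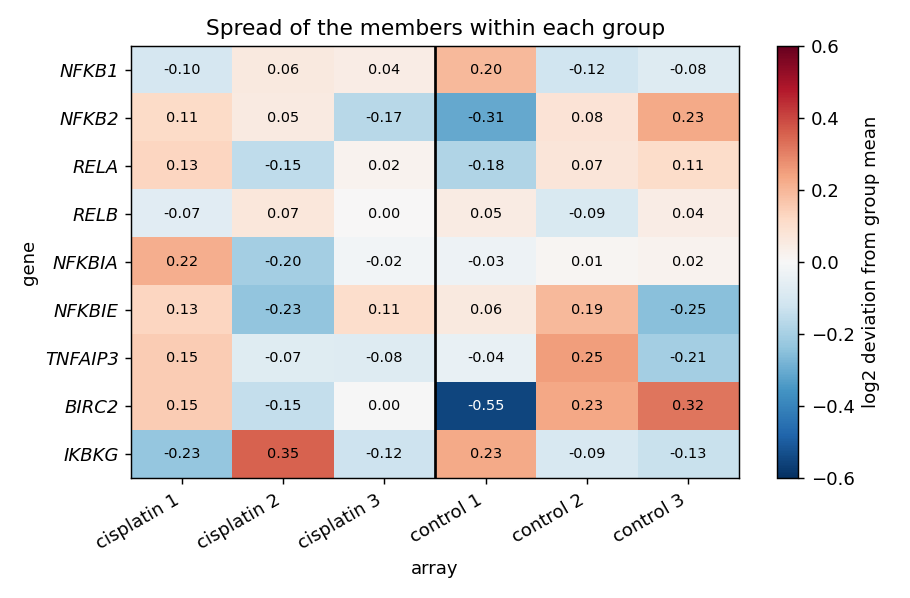
Deviation of each log2 value from the mean of its own group, for 9 genes (rows) on 6 arrays (columns, cisplatin left of the line and control right of it); red is above the group mean and blue below. The largest deviation is that of BIRC2 on control 1, at -0.55, and IKBKG on cisplatin 2 stands 0.35 above its group.

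Control 1 and cisplatin 2 lay apart from the other 4 on the first principal component of all tested probe sets, which held 39.9% of the variance. The 3′/5′ signal ratio of the ACTB controls, which reflects how intact the RNA was, came to 2.67 on cisplatin 2 and 2.20 on control 1, the lowest of each group, and the other 4 arrays had 2.94 to 3.67. For 5 of the 9 genes both arrays were at the same end of the 6 values, and for the other 4 (NFKB2, RELB, NFKBIE and TNFAIP3) they were not. They were the highest 2 for NFKB1 and IKBKG, and the lowest 2 for RELA, NFKBIA and BIRC2. Both arrays shared an end in 29.7% of all tested probe sets. TNFAIP3 and NFKBIE deviated most on control 2 (0.25) and control 3 (-0.25) on the log2 scale. Without both arrays the log2 fold was -0.057 for BIRC2, -0.064 for NFKB2 and 0.038 for NFKB1, each of the opposite sign to the fold over all arrays. The part of RNA integrity in these values was not tested apart from a fit with the ratio as a covariate, in which again 0 of the 9 were called and the folds of NFKB1, NFKB2, BIRC2 and IKBKG took the opposite sign.

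The rest of the pathway was followed through 5 lists, with 69 genes that had a named probe set and 55 that were tested. Again 0 passed, against 0.290% of all tested probe sets. An unadjusted p under 0.05 was found for 5 of the 55, 4 higher and 1 lower, against 5.03% of all tested probe sets. The groups did not overlap for 6 of the 55, near the 11.0% of all tested probe sets. The median log2 fold was 0.055 over the 55 genes, with 37 positive and 18 negative, beside 0.040 over all tested probe sets.

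Among the ligands (4 tested, median log2 fold 0.094) was IL18, a cytokine whose receptor signals to NF-kB. It read 159, 174 and 149 after cisplatin, against 111, 133 and 133 in controls. All cisplatin arrays were above all controls, with a log2 fold of 0.33 (limma unadjusted p = 0.0349, adjusted p = 0.890). IL1B and LTA, which encode further activating cytokines, had log2 folds of 0.16 and -0.095.

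Receptors and adaptors (13 tested) had a median log2 fold of 0.020, with 8 positive, 5 negative and 0 at an unadjusted p under 0.05 in limma. TNFRSF12A, the receptor of the cytokine TWEAK, had the lowest log2 fold, -0.38 (SE 0.21), with 218, 299.6 and 338 after cisplatin, against 497, 341 and 296 in controls. Its groups overlapped, and control 1 was the highest array. TNFRSF1A, the main TNF receptor gene, had -0.16 (SE 0.10). On the positive side MYD88, the adaptor of interleukin-1 and Toll-like receptors, had 0.25 (SE 0.13) and CD40 had 0.20 (SE 0.15).

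In the IKK complex and its upstream kinases (11 tested, median log2 fold 0.053) IRAK1, a kinase downstream of MYD88, had the lowest unadjusted p. It read 2039, 1967 and 2043 after cisplatin, against 2337, 2169 and 2278 in controls. All cisplatin arrays were below all controls, by a small margin (log2 fold -0.16, SE 0.065, limma unadjusted p = 0.0317, adjusted p = 0.869). TAB1, a partner of the kinase TAK1, had a log2 fold of 0.33 (SE 0.18), CHUK, which encodes IKK alpha, 0.24 (SE 0.25), and RIPK2, a kinase of NOD receptor signalling, -0.11 (SE 0.16). The other subunits and inhibitors (5 tested, median 0.028) had log2 folds from -0.064 (XIAP, an inhibitor of caspases) to 0.099 (TNIP1, a partner of A20), with OTUD7B, a deubiquitinase, at 0.081.

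The NF-kB target genes outside the set (22 tested) had a median log2 fold of 0.11, with 15 positive and 7 negative. In limma 0 were called, against 0.290% of all tested probe sets. An unadjusted p under 0.05 was found for 3 of the 22, PLAU, BCL2L1 and NINJ1, all 3 with positive folds, against 5.03% of all tested probe sets. PLAU encodes the protease urokinase and read 766, 822 and 726 after cisplatin, against 636, 693 and 582 in controls (log2 fold 0.27, SE 0.10, limma unadjusted p = 0.0255, adjusted p = 0.805). BCL2L1 encodes the survival protein BCL-XL and read 183, 189 and 199 after cisplatin, against 157, 154 and 150.5 in controls (log2 fold 0.28, SE 0.12, limma unadjusted p = 0.0383, adjusted p = 0.908). The groups did not overlap for 4 of the 22, against 11.0% of all tested probe sets. These were PLAU, BCL2L1, CCL5 (log2 fold 0.27) and IRF1 (0.26), each with all cisplatin arrays above all controls. CCL5 and IRF1 were outside the naming rule and picked after their values were seen. NINJ1, an adhesion protein gene outside the naming rule and picked after its value was seen, had a log2 fold of 0.32 (SE 0.14). The highest log2 fold of the 22 was that of CXCL1, a chemokine gene, at 0.35 (SE 0.18), with overlapping groups. CXCL1 too was outside the naming rule and picked after its value was seen. At the lower end were CXCL2, a chemokine gene, at -0.11 (SE 0.19) and IER3, an immediate early gene, at -0.097 (SE 0.10).

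**Figure D4:**
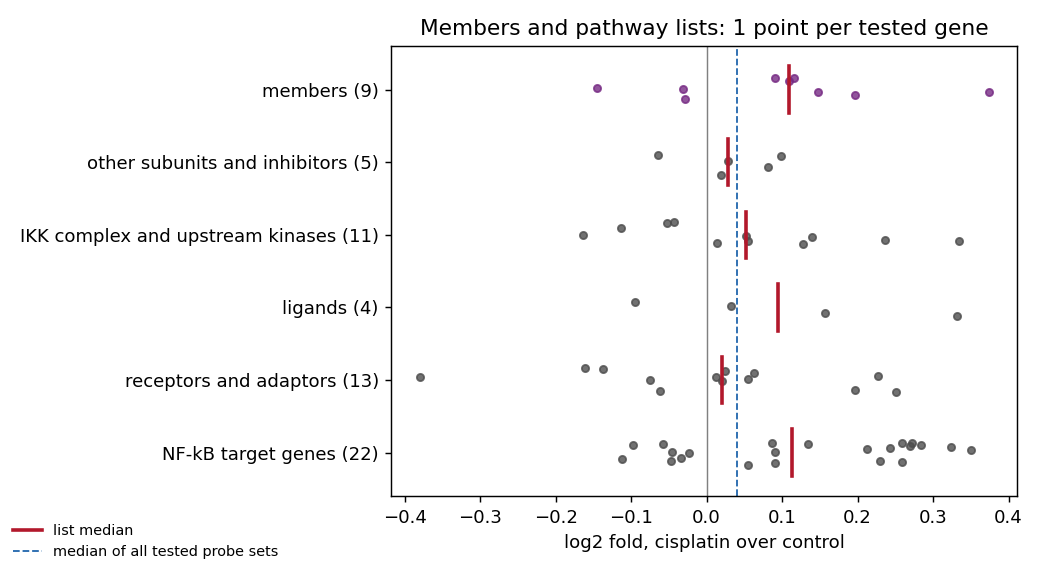
Log2 fold of cisplatin over control for each tested gene (points) of the 9 genes and of the 5 pathway lists, with the number of genes in brackets; red bars are list medians and the dashed line the median of all tested probe sets (0.040). The points lie between -0.38 and 0.37, and list medians run from 0.020 for receptors and adaptors to 0.11 for the 9 genes and for the target genes.

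Genes with and without the kappaB motif had close median folds across the array. Tested genes with a promoter window numbered 4790, of which 626 (13.1%) held a match. Here each gene was represented by its probe set with the highest cisplatin mean. That choice can lean folds upward, with or without a match. Their median log2 fold was 0.040 (quartiles -0.068 and 0.16), against 0.039 (quartiles -0.064 and 0.15) for the 4164 without a match. Among those with a match 0 were called in limma, and 59.4% had a positive fold. Among those without a match 10 were called higher and 4 lower, and 60.6% had a positive fold. Over all tested probe sets 0.290% were called, a share too small for 0 calls among 626 genes to be read as a difference. Among the measured members the log2 folds were -0.031, 0.20 and 0.11 for NFKB1, NFKBIA and TNFAIP3, whose matches are printed above, and 0.12, -0.029, 0.15 and -0.15 for NFKB2, RELA, BIRC2 and IKBKG.

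The genes whose values over the 6 arrays were most like those of NFKBIE, the member with the lowest unadjusted p, were KCNJ5, BCL2A1, ZNF133, TM7SF3 and RRAS2. Pearson's r of the log2 values ran from 0.970 for RRAS2 to 0.989 for KCNJ5, and 64 of 5913 probe sets compared had an r over 0.9. The points share the same 6 arrays, so r is a description of these arrays. BCL2A1, a survival gene of the BCL2 family that is also in the target list, had an r of 0.984 and a log2 fold of 0.23 (SE 0.16). None of the 5 was called, TM7SF3 coming nearest with a log2 fold of 0.45 (SE 0.15, limma adjusted p = 0.722).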

How the data were processed

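The deposited table holds linear probe set intensity values, and 723 of 52758 (1.37%) are at or below 0. The authors' values had therefore had something subtracted, of a kind not known here. Software and scaling: not given in the sources used here. Values below 0 were set to 0, an offset of 11.8 (10th percentile of positive values) was added and log2 taken. The 75th percentiles spanned 0.15 (limit 0.3), so arrays were not rescaled. The 47 control probe sets and those with a mean log2 under the 25th percentile were left out.

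The groups were compared in limma 3.58.1 (R 4.3.3; lmFit, then eBayes with an intensity trend), two-sided, with Benjamini-Hochberg adjustment over 6559 probe sets at 0.05. SD is of deposited intensities. An exact test of 3 against 3 arrays cannot go below 0.1 and was not used. Names came from the platform's probe table: 7840 probe sets had 1 symbol, 388 several and 518 none. The limma step was run on simulated data with 2-fold changes and independent noise whose spread did not depend on intensity. That run does not cover smaller folds or dim probe sets. Figures were drawn with matplotlib 3.10.9 (Python 3.11.15).

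Members and lists were chosen with earlier results of these data known. Named were all members, CDKN1A, every list gene past the threshold, the 2 of lowest unadjusted p in each direction per list, and the 5 genes most correlated with the member of lowest unadjusted p; lists used the brightest probe set of a gene. Alternatives covered scaling, offset, filter, variance prior, replicate block, ACTB ratio and left-out arrays. Equal replicate numbers are not said to share an experiment.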

Additional observations from a re-analysis of the deposited data

How the results depend on the processing

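Under 16 alternatives 0 of the 9 genes and 0 genes of the 5 lists were called, and of 141 log2 folds of the 9 genes 127 kept their sign. RELB, NFKBIA, NFKBIE and TNFAIP3 kept theirs in every alternative that tested them. With the ACTB 3′/5′ ratio as a covariate the log2 fold was -0.11 for BIRC2, 0.038 for IKBKG, 0.074 for NFKB1 and -0.018 for NFKB2. Leaving out control 1 and cisplatin 2 gave -0.057 for BIRC2, 0.038 for NFKB1 and -0.064 for NFKB2. Leaving out each array gave -0.13 to 0.31 for BIRC2, -0.091 to 0.067 for NFKB1, -0.038 to 0.23 for NFKB2 and -0.12 to 0.047 for RELA. NFKB1 was positive without control 1 and without cisplatin 1 (0.021), RELA without cisplatin 2, control 2 (0.0077) or control 3 (0.026). Against 19 probe sets called in all, 47 were called with the covariate, 8 without the intensity trend, 11 after median centring, 5 with the replicate block, and 6 to 18 with an array left out (6 without cisplatin 1 or control 2, 7 without cisplatin 3, 8 without control 3, 11 without cisplatin 2). The cause was not tested. Arrays of equal number deviated from their group means with correlations of -0.56, -0.31 and -0.12, and 0 of 6 arrays lay closest to its own number. These values cannot decide whether equal numbers share an experiment, because control 1 and cisplatin 2, which lay apart from the rest, have different numbers. The block uses up degrees of freedom. RELB, NFKBIE and TNFAIP3 fell below the filter at the 50th percentile. The files used here hold no detection calls, so signal over background limits what the dim probe sets can show.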

Other observations

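Several classical NF-kB targets were too dim to be tested; they were picked after their values were seen. CXCL8, the interleukin-8 gene, read 24.9, 12.9 and 15.1 after cisplatin, against 18.5, 18.7 and 18.6 in controls. CCL20, a chemokine gene, was at or below 0 on 3 of 3 cisplatin arrays and 2 of 3 control arrays, the third control array being at 7.53. TNF read 21.4, 15.6 and 14.2 after cisplatin, against 22.4, 18.2 and 25.0 in controls. The adhesion gene ICAM1 read 18.6, 28.7 and 13.5 after cisplatin, against 13.5, 20.4 and 19.2 in controls. In each of these the groups overlapped. Other classical targets were bright enough: of 29 genes of the target list with a named probe set 22 were tested and 7 were not. Among those tested were CXCL1 (log2 fold 0.35, SE 0.18), IL6 (0.26, SE 0.21) and CXCL2 (-0.11, SE 0.19), all with overlapping groups.

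BIRC2 was low on control 1, and so were some kinase genes of the pathway, again picked after their values were seen. Of the 11 tested genes of the kinase list, control 1 was the lowest control for 5 and the highest for 5. Over all tested probe sets it was the lowest for 44.2% and the highest for 30.4%. CHUK read 58.7 on control 1, against 116 and 120 on control 2 and 3. TBK1, an IKK-related kinase gene, read 173 on control 1, against 338 and 304 on control 2 and 3. MAP3K7, which encodes TAK1, read 75.8 on control 1, against 125 and 146 on control 2 and 3. On the log2 scale control 1 stood from -0.88 (CHUK) to -0.75 (MAP3K7) from the mean of the other controls, and BIRC2 at -0.83.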
